A study of Mus musculus with 4 samples.

Results

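The microRNA cluster that begins with miR-322 is a run of miRNA genes close together on the mouse X chromosome. Its members here are all arms named after the miR-450a, miR-450b, miR-542, miR-351, miR-503 and miR-322 hairpins. They were taken by name from the reads that matched a single miRNA, and 11 of the 600 arm names with such reads belong to the cluster. An arm is one of the strands cut from a hairpin precursor, and a star marks the strand that is usually the rarer one. Sequencing covered the small RNA of NIH-3T3, a mouse fibroblast line that was seeded at equal cell number and grown to confluency. One group was given 500 nM thapsigargin in the medium for 24 h and the other was left untreated, with 2 libraries in each group and no vehicle named for the controls. The labels do not say whether replicates were separate cultures, so a p-value here measures only the spread between these libraries, which may be technical.

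Thapsigargin blocks the SERCA pump that fills the endoplasmic reticulum with calcium, and loss of that calcium store brings on stress of the organelle. The comparison asked which miRNAs differ after such treatment. A miRNA guides the silencing complex to messenger RNAs mainly through its seed, the short stretch of bases near its 5′ end. miR-322, the mouse counterpart of human miR-424, and miR-503 are known for holding back cell cycle genes such as cyclins and Cdc25a and for their induction when muscle precursors stop dividing. miR-351 carries the seed of the miR-125 family, the counterpart of worm lin-4. miR-542-3p is known from work on human cells to target the survival factor survivin. The host transcript of these genes is a long non-coding RNA.

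The mature sequences below are from RefSeq (build GRCm38.p6). They are shown because the arms fall into seed groups that cross the border of the cluster, and the capitals mark the seed, bases 2 to 8 from the 5′ end.
miR-322: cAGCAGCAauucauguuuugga
miR-503: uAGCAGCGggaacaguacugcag
miR-16: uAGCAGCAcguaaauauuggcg
miR-351: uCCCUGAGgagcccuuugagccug
miR-125b-5p: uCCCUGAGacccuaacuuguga
miR-450a: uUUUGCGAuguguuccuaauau
miR-450b-5p: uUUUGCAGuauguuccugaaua
miR-542-3p: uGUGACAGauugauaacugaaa

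miR-322 has the same seed as miR-15a, miR-15b, miR-16, miR-195 and miR-497, which lie on other chromosomes. The seed of miR-503 differs from that of miR-322 by A8G, with miR-322 as the reference and positions counted from 1 at the 5′ end. miR-351 shares its seed with miR-125a-5p and miR-125b-5p. miR-450a and miR-450b-5p, although numbered together, differ by G7A and A8G within the seed and by G10A, A18G, U20A, A21U and U22A outside it, with miR-450a as the reference.

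In RefSeq the 7 loci of the cluster span 6353 bases of the minus strand, chrX:53047997-53054349 in GRCm38.p6, in the order Mir322, Mir503, Mir351, Mir542, Mir450-2, Mir450-1 and Mir450b. Mir322 and Mir503 are separated by 200 bases, whereas 3788 bases lie between the arms of miR-351 and Mir542. Mature miR-322 lies at chrX:53054306-53054327, miR-503 at chrX:53054027-53054049, miR-351 at chrX:53053315-53053338 and miR-450b-5p at chrX:53048044-53048065. miR-450a is encoded by both Mir450-1 and Mir450-2, so its reads cannot be assigned to one locus. The deposited files carry no coordinates and the submitters' processing notes name build mm9, so these positions describe the RefSeq sequences that the reads were matched to.

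The libraries held 5570614 and 2685920 arm reads with thapsigargin, against 3856537 and 3633245 in controls, and intervals given below cover counting error only. The miRNA markers of fibroblasts (miR-143, miR-145, both arms of miR-199a, miR-214 and miR-21) made up 7.88% to 18% of arm reads, with 5 of 6 names present. Embryonic stem cell, epithelial, muscle and liver markers had at most 7 reads per library, and blood cell markers 180 to 609 reads. Control replicate 1 stood apart from the other libraries in where its reads began. Of the cluster's placed reads, 0.774% and 0.156% began at RefSeq base 1 in thapsigargin replicates 1 and 2, against 99.1% in control replicate 1 and 0.414% in control replicate 2. In the other libraries 98% to 99.2% began at base 2, so their reads lacked the first base of the mature sequence. This held arm by arm: base 1 was the commonest start of 11 of 11 arms in control replicate 1, and base 2 that of every arm with reads in the other libraries, tied with base 3 for miR-450b-3p in control replicate 2 at 3 of 6 reads each. Results are therefore also given after removal of the first base from every read in control replicate 1, a step that leaves out those then shorter than the 18 nt minimum of the deposited tables. After it 99.8% of that library's remaining reads were found as identical sequences in another library, and each of these took the arm name and table it had there. The step therefore also moved reads between names, as in miR-322*, which had 2320 reads in control replicate 1 after it and 2224 before.

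**Figure D1:**
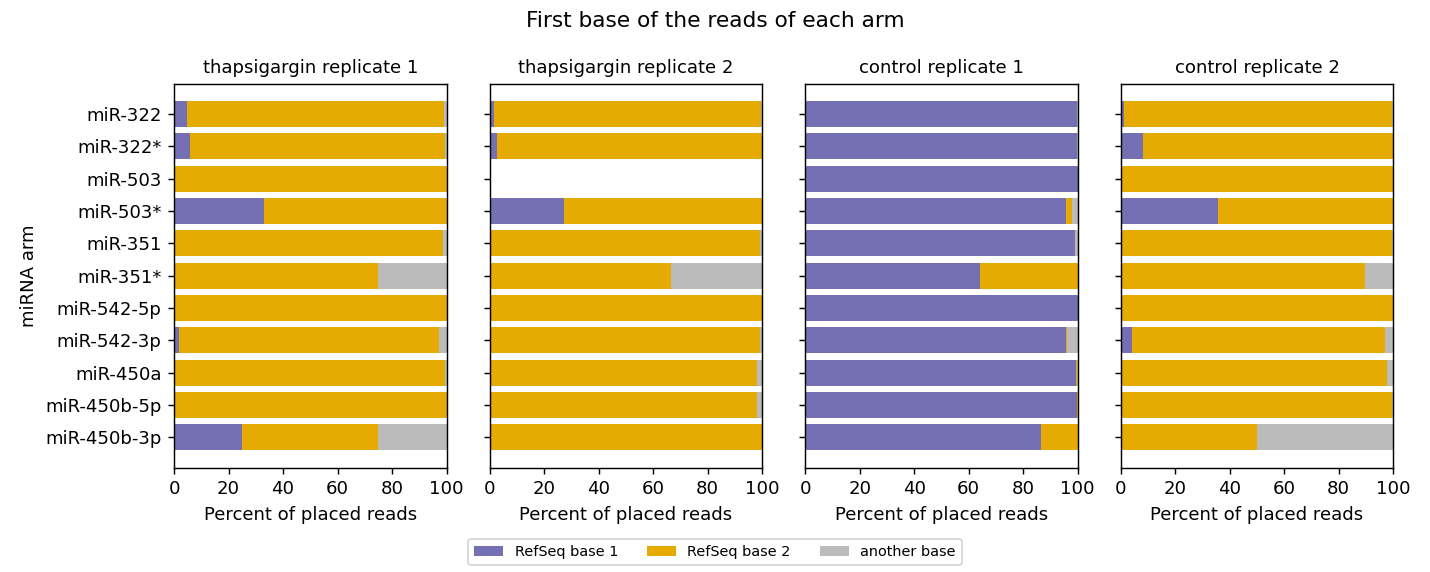
Percent of placed reads of each arm (rows) that begin at RefSeq base 1, base 2 or another base, with a panel per library. Control replicate 1 begins at base 1 (99.1% of the cluster's placed reads) and the other 3 libraries at base 2; miR-503 has no bar in thapsigargin replicate 2, where it had 0 reads.

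Most reads of the cluster came from miR-351. The 11 arms together had 31403 and 9743 reads with thapsigargin, against 46871 and 14924 reads in controls. As CPM, read counts scaled to a common total of arm reads per library, these were 5637 and 3627 CPM with thapsigargin, against 12154 and 4108 CPM in controls. Control replicate 1 was the highest of the 4 libraries, and control replicate 2 lay within the range of the thapsigargin libraries. miR-351 alone was 85.4% and 92.7% of the cluster's reads with thapsigargin, against 84.9% and 89.5% in controls. The log2 ratio of the mean summed CPM was -0.81, compared with a pooled SD between replicates of 0.84 on the log2 scale, and it was 0.17 without control replicate 1. After TMM scaling of the libraries the sums were 5086 and 5066 scaled CPM with thapsigargin, against 8686 and 4561 scaled CPM in controls, a log2 ratio of -0.38 with control replicate 2 below both thapsigargin libraries. The summed level thus gave no difference beyond the spread between replicates.

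Levels of single arms are given as scaled CPM, CPM after scaling each library by the TMM method of edgeR. Each read is a whole small RNA, so no length correction applies. Over the 4 libraries the arms fell into 4 tiers that did not overlap. miR-351 stood alone at 4084 to 7374 scaled CPM. miR-322 (124 to 675 scaled CPM) and miR-322* (112 to 412 scaled CPM) came next and overlapped each other. miR-542-3p (54.7 to 84.2 scaled CPM), miR-450b-5p (22.7 to 72.7 scaled CPM) and miR-450a (26.5 to 66.3 scaled CPM) formed the third tier. The lowest tier held miR-503*, miR-542-5p, miR-351*, miR-503 and miR-450b-3p, from 0 to 11.2 scaled CPM. miR-503, whose seed is closest to that of miR-322, had at most 19 reads in any library.

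**Figure D2:**
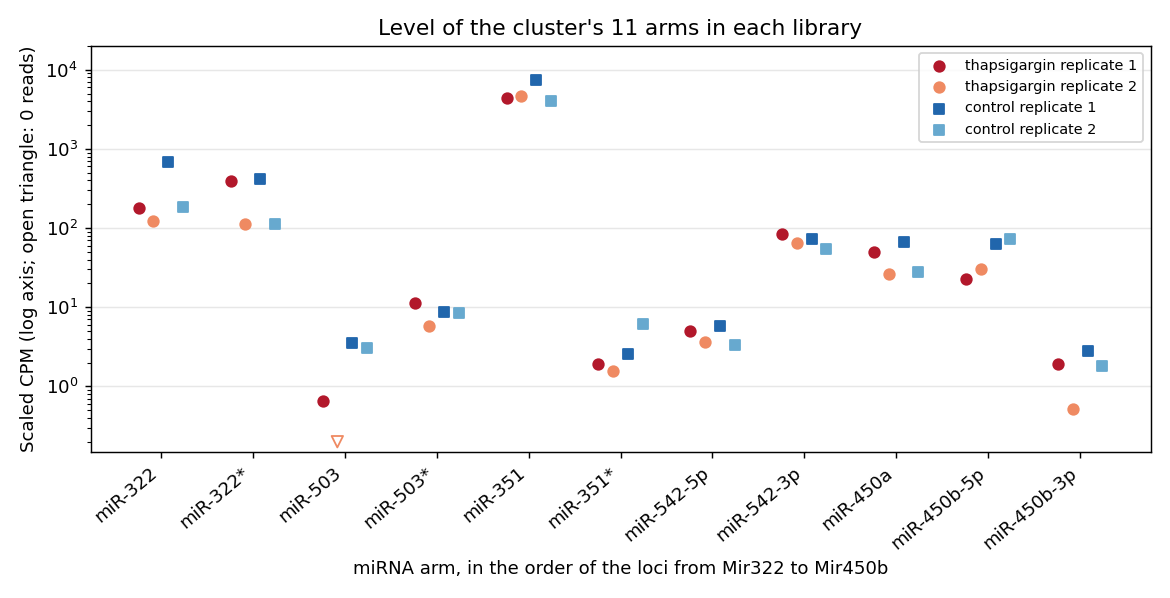
Scaled CPM (log axis) of the 11 arms in each library, thapsigargin libraries as circles and control libraries as squares; the open triangle marks 0 reads. miR-351 lies at 4084 to 7374 scaled CPM, above all other arms, and miR-450b-5p is lower in both thapsigargin libraries than in both controls.

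No arm of the cluster passed the test for a difference between thapsigargin and control. With edgeR's quasi-likelihood test and Benjamini-Hochberg adjustment over 307 tested arms, 0 of the 10 tested cluster arms were called, where 0% of all arms were called. At an unadjusted p under 0.05 there were 2 cluster arms, miR-503 and miR-450b-5p, both lower with thapsigargin, and 11 of all 307 arms (3.58%, or 1.63% for lower with thapsigargin). The same count was 13 of 307 arms (4.23%) by DESeq2 and 11 by limma-voom, and neither of these tools called an arm after adjustment. The filter on low counts kept an arm that reached a minimum level in at least 2 libraries. miR-503 did so only in controls, at 4.93 and 2.75 CPM without TMM scaling, against 0.718 and 0 CPM with thapsigargin. Its entry into the test thus already favoured a lower level with thapsigargin. Of the 10 tested cluster arms 8 had a log2 fold change below 0, with a median of -0.32, beside 49.8% of all tested arms below 0 and a median of 0.0019. Scaling by total arm reads alone moved the median of all arms to -0.36 and put 10 of the 10 cluster arms below 0. The share of all arms below 0 under that scaling was not counted. In scaled CPM, 4 of the tested cluster arms were lower in both thapsigargin libraries than in both controls (background 16.9% of arms), and 0 were higher in both (background 17.3%). In CPM without TMM scaling, 3 were lower in both (background 25.1%): miR-503, miR-351* and miR-450b-5p. Like miR-503, miR-351* reached the filter's level only in controls, at 3.63 and 5.5 CPM, against 2.15 and 1.12 CPM with thapsigargin. For these 2 arms the separation is tied to how they passed the filter, and it is no support for a difference. How many background arms passed in this way was not counted.

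mmu-miR-322, a member of the miR-15/16 seed group, had 177 and 124 scaled CPM with thapsigargin, against 675 and 187 scaled CPM in controls. On this scale the groups did not overlap, with control replicate 2 close above thapsigargin replicate 1 and control replicate 1 far above the other 3 libraries. Without TMM scaling they overlapped, at 196 and 88.6 CPM with thapsigargin against 945 and 168 CPM in controls. The log2 fold change was -1.52 (SE 0.67, n = 2 per group, adjusted p = 0.88 by edgeR's quasi-likelihood test). It was -0.31 without control replicate 1 and -2.20 without control replicate 2. With the first base taken off control replicate 1 it was -0.88 (SE 0.53), and on reads of 20 to 24 nt -0.91 (SE 0.57). Because reads of control replicate 1 begin 1 base earlier, the same length limits keep reads there that end 1 base earlier. The length class is therefore not the same set of molecules in all libraries, here and below.

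Read lengths of miR-322 also set control replicate 1 apart. The commonest miR-322 reads of the libraries are given here because a short form was nearly as common as the full one in that library; capitals mark the 3′ bases that the short form lacks.
full form, control replicate 1: cagcagcaattcatgtttTGGA
short form, control replicate 1: cagcagcaattcatgttt
commonest form, other libraries: agcagcaattcatgtttTGGA

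Reads of miR-322 that ended after RefSeq base 18, just before the bases TGG, were 0.366% and 0% of its reads with thapsigargin, against 44.6% in control replicate 1 and 0.327% in control replicate 2. The short form is 18 nt long when it begins at base 1. Beginning at base 2, as in the other libraries, it would be 17 nt long, under the 18 nt minimum of the deposited tables. Control replicate 1 had 3644 miR-322 reads in all, 1984 of them of 20 to 24 nt. Its level in that length class is the one behind the log2 fold change of -0.91. In miR-503*, where the same letters follow base 19 and the short form stays at or above 18 nt from either start, it was 8.7% and 18.2% of reads with thapsigargin, against 25.5% and 17.9% in controls. Whether the short form was made in the cells, in library preparation or in read trimming was not tested. The part of the short form in the difference of miR-322 between the groups was not tested beyond these alternatives.

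**Figure D3:**
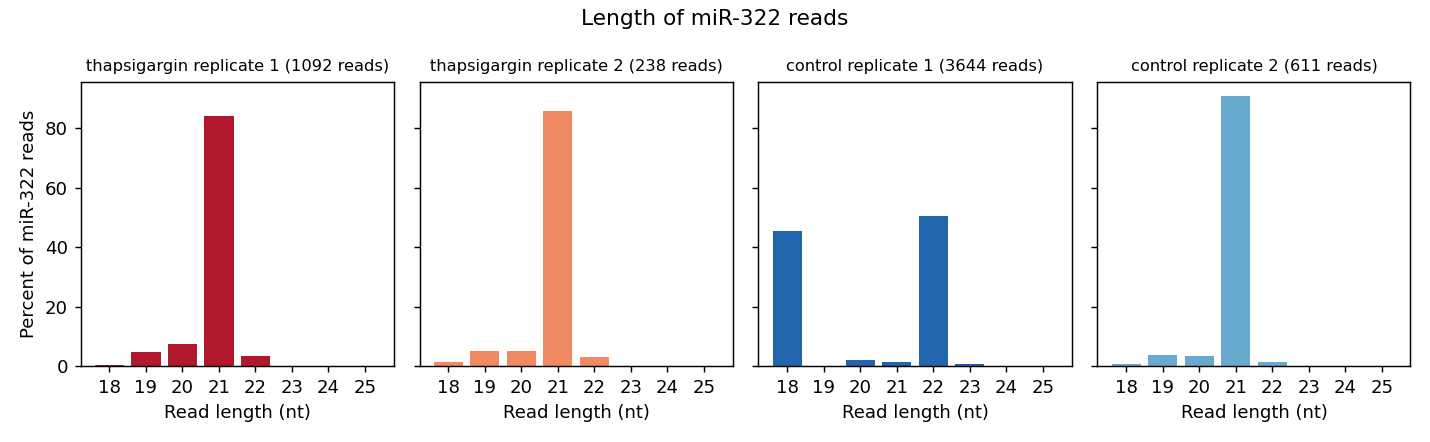
Percent of miR-322 reads by read length in nt, with a panel per library. A single length of 21 nt leads in both thapsigargin libraries and in control replicate 2, while control replicate 1 has peaks at 18 and 22 nt, with 44.6% of its reads ending before the bases TGG.

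mmu-miR-503, which differs from miR-322 by 1 seed base, had 4 and 0 reads with thapsigargin, against 19 and 10 reads in controls. All thapsigargin counts were below all control counts. The ratio of pooled reads per arm read was 0.125 (exact 95% counting interval 0.032 to 0.356), and the log2 fold change was -2.79 (SE 0.85, adjusted p = 0.88 by edgeR's quasi-likelihood test, p = 0.00962 before adjustment). Without thapsigargin replicate 1 the treated group would rest on a library with 0 reads, which allows up to 3 reads. The counts are low in every library, so the size of the difference is known only within that interval. The arm passed the filter on low counts only through its control reads, so its p-value is no independent sign of a difference.

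mmu-miR-450b-5p stood at 22.7 and 30.7 scaled CPM with thapsigargin, against 62.5 and 72.7 scaled CPM in controls, and the gap between the groups was wider than the gap within either. Means were 26.7 ± 5.66 scaled CPM with thapsigargin and 67.6 ± 7.27 scaled CPM in controls (SD, n = 2 each). The log2 fold change was -1.35 (SE 0.51, adjusted p = 0.88 by edgeR's quasi-likelihood test). Fits that omitted a single library gave -1.56 to -1.17, and the value was -1.33 with the first base taken off control replicate 1.

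mmu-miR-450a, the near relative of miR-450b-5p from the neighbouring hairpins, did not share that separation. It had 49.9 and 26.5 scaled CPM with thapsigargin, against 66.3 and 27.5 scaled CPM in controls, and the groups overlapped. Its log2 fold change was -0.29 (SE 0.60). Whether the changes of miR-450a and miR-450b-5p differ was not tested.

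mmu-miR-351, the abundant arm with the miR-125 seed, had 4343 and 4698 scaled CPM with thapsigargin, against 7374 and 4084 scaled CPM in controls. The thapsigargin libraries lay close together between the controls. The log2 fold change was -0.34 (SE 0.48), and it was 0.15 without control replicate 1. miR-351*, its rare partner strand, had 12 and 3 reads with thapsigargin, against 14 and 20 reads in controls, and both thapsigargin libraries lay below both controls. The nearest libraries were thapsigargin replicate 1 at 1.94 scaled CPM and control replicate 1 at 2.59 scaled CPM. The counts are low, and the arm passed the filter on low counts only through the controls. Its log2 fold change was -1.23 (SE 0.72, adjusted p = 0.88 by edgeR's quasi-likelihood test), and -0.55 without control replicate 2.

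mmu-miR-542-3p, 1 of the 2 tested cluster arms above 0, had 84.2 and 64.5 scaled CPM with thapsigargin, against 72.5 and 54.7 scaled CPM in controls. The groups overlapped, with a log2 fold change of 0.23 (SE 0.50). Scaled by total arm reads alone it was -0.11, so even its direction rests on the scaling. Its partner miR-542-5p had 31 and 7 reads with thapsigargin, against 31 and 11 reads in controls, a log2 fold change of -0.06 (SE 0.65).

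**Figure D4:**
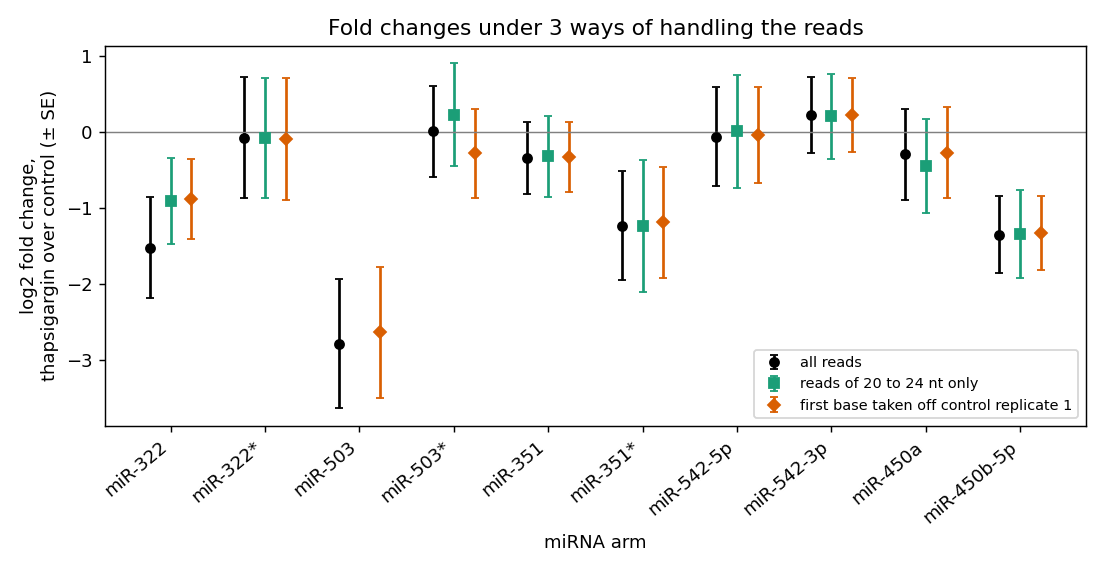
Log2 fold change of each tested arm, thapsigargin over control, with its SE, for all reads (black), reads of 20 to 24 nt (green) and after the first base was taken off control replicate 1 (orange). miR-322 moves from -1.52 to -0.91 and -0.88, while miR-450b-5p stays between -1.35 and -1.33; miR-503 was not tested on reads of 20 to 24 nt.

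The use of the strands differed more between hairpins than between groups. The 3p arm gave 94.4% and 94.7% of miR-542 reads with thapsigargin, against 92.7% and 94.2% in controls. In miR-351 the 3p arm was at most 0.149% of the hairpin's reads in any library. In miR-450b it was 7.89% and 1.67% with thapsigargin, against 4.26% and 2.46% in controls. That share counts all reads named miR-450b-3p. Of these, 1 and 0 with thapsigargin, against 4 and 5 in controls, matched Mir450-1 instead. miR-503 was also read mainly from the strand named as the star, while miR-322 gave many reads from both strands.

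mmu-miR-322* was 68.7% and 47.5% of the reads of its hairpin with thapsigargin (exact 95% intervals 67.1% to 70.2% and 42.8% to 52.2%), against 37.9% and 37.5% in controls (36.7% to 39.2% and 34.5% to 40.6%). The thapsigargin libraries lay above both controls but differed from each other by more than counting error. miR-322* itself overlapped between the groups, at 388 and 112 scaled CPM with thapsigargin against 412 and 112 scaled CPM in controls. With the first base taken off control replicate 1, the share in that library was 53.4%, and on reads of 20 to 24 nt it was 52.3%, against 47.5% and 46.7% in thapsigargin replicate 2. Under both alternatives the groups overlapped.

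mmu-miR-503* gave 94.5% of the reads of its hairpin in thapsigargin replicate 1 (exact 95% interval 86.6% to 98.5%) and all 11 of them in thapsigargin replicate 2 (lower bound 71.5%), against 71.2% and 73.7% in controls (58.7% to 81.7% and 56.9% to 86.6%). The thapsigargin libraries lay above both controls, also on reads of 20 to 24 nt and with the first base taken off control replicate 1. That last step put the share in control replicate 1 at 81%. Its 71.2% leaves out 24 reads filed under a predicted star, a class with 0 reads of this hairpin in the other libraries. miR-503* itself had 69 and 11 reads with thapsigargin, against 47 and 28 reads in controls, a log2 fold change of 0.01 (SE 0.60). The low arm of this hairpin was therefore miR-503, and the share rests on its 4 and 0 reads with thapsigargin.

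Arm use was tested with edgeR's diffSpliceDGE on 162 arms of 81 hairpins, which compares each arm with its whole hairpin. It called 0 arms (0%), and 6 arms (3.7%) had an unadjusted p under 0.05, miR-503 among them. The miR-503 hairpin entered this test only because miR-503 passed the filter on low counts through its control reads. That entry favours a low share of miR-503 with thapsigargin, so its p-value and the separation of its shares are no support for a difference. The log2 ratio of miR-503 to its hairpin was -2.44 (adjusted p = 0.576 by edgeR's diffSpliceDGE), and that of miR-322* was 0.72 (adjusted p = 1). The arm shares of miR-322, miR-503 and miR-542 did not overlap between the groups, 3 of the 4 cluster hairpins tested, where 35.8% of all 81 hairpins did not. On reads of 20 to 24 nt the shares of miR-322 and miR-542 overlapped, which left miR-503 alone.

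**Figure D5:**
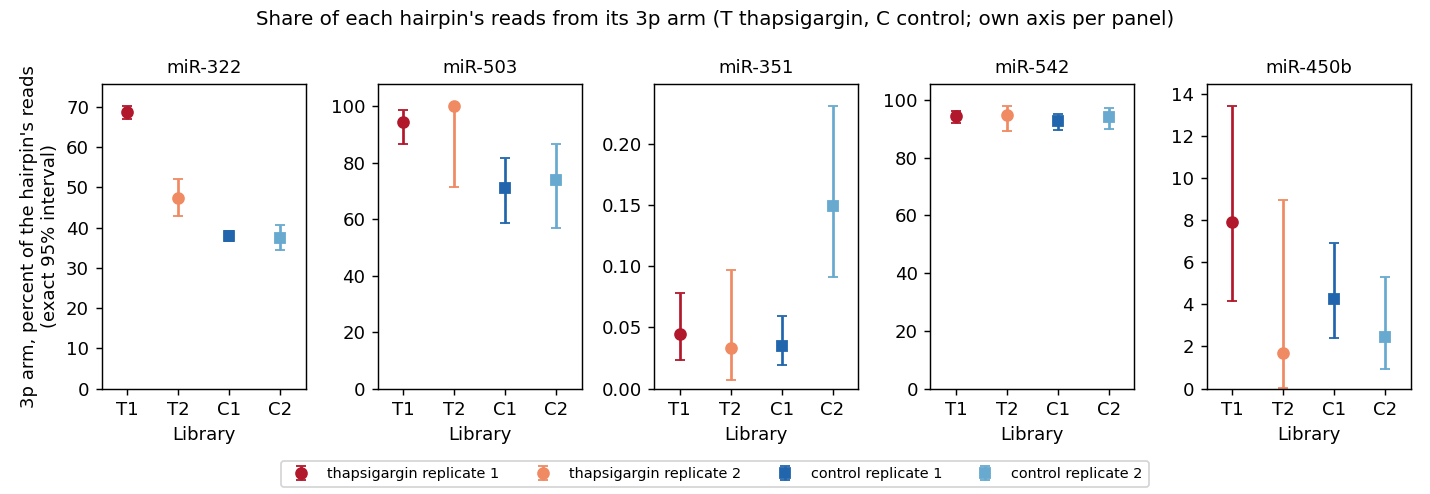
Percent of each hairpin's reads that came from its 3p arm, with exact 95% intervals, thapsigargin libraries (T1, T2) left of controls (C1, C2); each panel has its own axis. miR-322 lies at 68.7% and 47.5% with thapsigargin against 37.9% and 37.5% in controls, and miR-503 at 94.5% and at all reads of its hairpin with thapsigargin, against 71.2% and 73.7% in controls.

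The 3′ end of miR-322* did not follow the RefSeq hairpin in any library. Its commonest read is shown because it ended in a T, in capitals, where the RefSeq hairpin has a C; it is given for the libraries that begin at base 2 and for control replicate 1.
miR-322* read, both thapsigargin libraries and control replicate 2: aacatgaagcgctgcaacacT
miR-322* read, control replicate 1: aaacatgaagcgctgcaacacT

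A single unmatched T after any matching 3′ end was counted as an added T. Reads with an added T were 80.4% and 81.6% of classed miR-322* reads with thapsigargin, against 78.8% and 68.5% in controls. Of the reads long enough to cover the base where the hairpin has the C, 96.6% and 97.7% had T with thapsigargin. In controls these were 96.2% and 93.2%. In each library the share of miR-322* reads with an added T was the highest among 110 arms, whose medians were 1.63% to 2.67%. The next arms by their mean over the libraries were miR-345-3p, at 66.7% to 72.3%, and let-7b*, at 51.5% to 68.4%. Among the other cluster arms with at least 50 classed reads in each library, miR-322, miR-351, miR-542-3p, miR-450a and miR-450b-5p, the share was at most 4.92%. miR-503*, with 11 to 67 classed reads, was among the arms left out by that limit. Its share was 14.9% and 18.2% with thapsigargin, against 14.9% and 3.57% in controls. Addition of single uridines to 3′ ends is known from enzymes that act on precursors and mature miRNAs, and from the reads alone an added base cannot be told from a base difference in this cell line.

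The commonest fully matching end of miR-351 was base 23, 1 short of the RefSeq end, in 67.1% to 81.4% of its matching reads. That of miR-450b-5p was also base 23, 1 past the RefSeq end, in 80.4% to 87.9%. miR-450a ended at its RefSeq base 22 in 69.7% to 79.1%. Each of these ends was the commonest in all 4 libraries.

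miR-503* had a mixed 5′ end in every library. A form 1 base longer at the 5′ end than the commonest was 32.8% and 27.3% of its placed reads with thapsigargin, against 32.9% and 35.7% in controls. In control replicate 1 these 23 reads had been filed by the authors under a predicted star and are not in the counts above. A shift of 1 base at the 5′ end changes the seed that a strand presents. miR-351 began 2 bases after its commonest start in 1.19% and 0.549% of placed reads with thapsigargin, against 0.679% and 0.326% in controls. The rare arms miR-351* and miR-450b-3p also had mixed starts, with 20 reads per library at most.

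mmu-miR-450b-3p, the rare strand of its hairpin, was not tested, with 12 and 1 reads with thapsigargin against 15 and 6 reads in controls. The name covered reads of more than one hairpin. The RefSeq sequences are shown because these arms are identical over their first 18 bases; capitals mark the bases from 19 on.
miR-450b-3p: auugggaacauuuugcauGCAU
miR-450a-1-3p: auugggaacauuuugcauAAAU

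Reads that matched the hairpin of miR-450b exactly and no other numbered 10 and 1 with thapsigargin, against 11 and 1 in controls. Reads that matched Mir450-1 instead numbered 1 and 0 with thapsigargin, against 4 and 5 in controls. In control replicate 2 most of the 6 reads under this name thus came from the sequence of miR-450a-1-3p. The counts are too low to compare the groups.

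The seed relatives outside the cluster bear on how much of each seed the cluster supplied. None of the 7 was called (0 of 7 by edgeR's quasi-likelihood test, 0 at an unadjusted p under 0.05, and 0 by DESeq2 and limma-voom), 5 were below 0 and their median log2 fold change was -0.19. miR-16, the most abundant holder of the miR-322 seed, had 2041 and 3138 scaled CPM with thapsigargin, against 2376 and 2713 scaled CPM in controls, a log2 fold change of 0.03 (SE 0.46). Its level overlapped between the groups, while miR-497 was lower in both thapsigargin libraries, at 26.7 and 27 scaled CPM against 34.3 and 42.2 scaled CPM in controls, a log2 fold change of -0.51 (SE 0.49, adjusted p = 0.987 by edgeR); 16.9% of all tested arms were separated in this direction. miR-15a, miR-15b and miR-195 overlapped, with log2 fold changes of 0.02, -0.19 and -0.28.

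miR-322 supplied 7.09% and 3.56% of the reads with its seed with thapsigargin, against 20% and 5.96% in controls. The groups overlapped, since control replicate 2 lay between the thapsigargin libraries, and control replicate 1 was again the highest. Its 20% counts 3644 miR-322 reads, of which 1624 were the 18 nt short form. That form would fall under the minimum length in libraries that begin at base 2. With the first base taken off, 2022 miR-322 reads remained in control replicate 1, and the share was not recomputed on them. miR-351 supplied 32.8% and 60.1% of the reads with its seed with thapsigargin, against 44.4% and 50.5% in controls, beside miR-125a-5p and miR-125b-5p. The thapsigargin libraries lay on either side of both controls. miR-125a-5p and miR-125b-5p had log2 fold changes of -0.08 (SE 0.60) and -0.20 (SE 0.70), and both were lowest in thapsigargin replicate 2.

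The arms outside the cluster whose centred log2 CPM lay nearest to that of miR-322 over the 4 libraries were miR-143* (Euclidean distance 0.83), miR-25* (0.98) and miR-194 (1.06). miR-143* had 4.21 and 6.76 scaled CPM with thapsigargin, against 22.6 and 7.95 scaled CPM in controls. Like miR-322, each of these arms was highest in control replicate 1. The likeness is over 4 libraries only. The distance was taken on log2 of scaled CPM plus 1, which shrinks the differences of low arms. miR-25* was such an arm, with 16 and 1 reads with thapsigargin, against 23 and 5 reads in controls.

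The authors' deposited table gives log2 fold changes of -2.89 for miR-503 (adjusted p = 0.314), -1.61 for miR-322 (adjusted p = 0.76) and -1.42 for miR-450b-5p (adjusted p = 0.933). The authors' deposited table has no entry named miR-322*, miR-503* or miR-351*. Of the cluster arms listed there, none passed an adjusted p of 0.05, and 2 of 324 names did (0.617%). Before adjustment, 3 cluster arms in the authors' deposited table were under 0.05, the same 3, where 15 of the 324 names were (4.63%). The other cluster arms in the authors' deposited table ranged from -0.76 for miR-450b-3p to 0.16 for miR-542-3p.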

How the data were processed

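Small RNA libraries of 2 thapsigargin and 2 control samples were made with the TruSeq small RNA kit, per the labels' protocols. CASAVA 1.8.1, cutadapt, Bowtie, DESeq 1.4.1 and build mm9 are named in the submitters' processing notes. The authors deposited whole-number counts of each distinct read sequence per miRNA name, with no read under 18 nt, and a comparison table of log2 fold changes and p-values; the sources used here do not say which tool made it. The authors also deposited percent values, used here only to recover the total of reads that entered the count. Counts of reads with a single match in the mature and star tables were summed per arm. Abundance was tested two-sided with edgeR 4.0.16 in R 4.3.3 (quasi-likelihood, TMM scaling, trended dispersion, robust fit, filterByExpr with a minimum count of 10), with all 4 libraries in the fit, and Benjamini-Hochberg adjusted p-values under 0.05 were called. The TMM factors were 1.11 and 0.716 with thapsigargin and 1.4 and 0.901 in controls. SE is the log2 fold change over the root of its F statistic. Depth was 2685920 to 5570614 arm reads per library, and the biological coefficient of variation was 0.442. Reads were placed on the RefSeq hairpin, or the mature sequence of miR-351, by their first 12 bases. A read was classed for its 3′ end if it was placed and did not run past that sequence. Intervals are exact binomial intervals (scipy 1.17.1). The scripts were tested on simulated data. Alternatives were DESeq2 1.42.0, limma 3.58.1 (voom), scalings, filters, read classes, read lengths, the replicate block and each library left out.

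All cluster arms with a read, the 7 seed relatives and the 3 arms nearest to miR-322 were named. Members and lists were chosen with earlier results of these data known.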

Additional observations from a re-analysis of the deposited data

How the results depend on the processing

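The count of called arms stayed at 0 under all but 2 alternatives: it was 3 of 600 arms with no filter on low counts (miR-216a*, miR-217 and miR-671-5p) and 1 without control replicate 2 (miR-671-5p), all named after their values were seen, a range of 0 to 1 over the fits that leave out a library. No cluster arm or seed relative was called under any alternative. The arm ratio test called 0 arms under every alternative except without control replicate 2, where it called 1, a range of 0 to 1 with each library left out. The replicate numbers were the same in both groups, and the deviations of libraries with the same number from their group means correlated at 0.56 across arms. With 2 libraries per group this does not establish a pairing. The replicate block left 0 arms called for abundance and 0 for arm ratio, with 26 and 14 at an unadjusted p under 0.05, against 11 and 6 without it.

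Of the 189 fold changes and arm ratios computed under alternatives, 20 reversed and none passed the test. Over the fits that leave out a library, miR-322* ranged from -1.28 to 1.17, miR-503* from -0.63 to 0.38, miR-351 from -0.75 (without control replicate 2) to 0.15 (without control replicate 1), miR-542-5p from -0.40 to 0.40, miR-542-3p from -0.02 to 0.45 and miR-450a from -0.87 to 0.49. In the arm ratio, miR-351* ranged from -1.89 to 0.20 and miR-542-3p from -0.00 to 0.02. miR-503* was -0.03 with DESeq2 and with its size factors in edgeR, -0.24 with total reads alone, -0.28 with the first base taken off control replicate 1, -0.02 with the block and -0.01 with limma-voom. miR-542-5p was 0.01 on reads of 20 to 24 nt, and miR-542-3p -0.11 with total reads alone. None of these arms was called in any fit; the cause was not tested.

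The log2 ratio of the summed level was -1.39 to 0.17 with each library left out. The share of placed cluster reads starting at RefSeq base 1 differed by -49.3 percentage points (thapsigargin minus control). That difference was 0.1 with the first base taken off control replicate 1, and -98.6 to 0.1 with each library left out. miR-503 was untested on reads of 20 to 24 nt and without control replicate 1; its other leave-one-out values were -6.56 to -2.29, the lower end against 0 reads and so no bound.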

Other observations

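Reads of these hairpins outside the annotated arms were few. Predicted star reads numbered 176 and 11 with thapsigargin, against 281 and 64 in controls, and hairpin reads 14 and 7 with thapsigargin, against 92 and 12 in controls. Most predicted star reads belonged to miR-322*. With them included, a form 2 bases longer at the 5′ end than the commonest was 6.87% and 4.48% of placed miR-322* reads with thapsigargin, against 6.23% and 15% in controls.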
